A study of Mus musculus with 2 samples.

Results

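Macrophage identity in the mouse is commonly read from a small set of surface and granule genes, and 10 of them were followed here on 1 array of wild-type and 1 array of c-Maf knockout fetal liver macrophages: Adgre1, Cd68, Aif1, Sirpa, Ptprc, Mpeg1, Lgals3, Lyz1, Lyz2 and Cd9. A probe set, the group of short probes that reports a transcript, was taken where the platform annotation named that gene alone, under its current or older symbol. This gave 15 of the 45101 probe sets on the array, and 10 of the 18193 genes named by at least 1 such probe set. Sirpa and Lyz1 had 3 probe sets each, Ptprc had 2 and the other 7 genes had 1 each. The wild-type cells came from c-Maf+/+ and the knockout cells from c-Maf-/- embryos of strain C57BL/6J, both at stage E15.5, with no treatment. In each genotype the fetal liver cells that bound antibodies to Mac-1 (CD11b, encoded by Itgam) and to F4/80 (encoded by Adgre1) were sorted before RNA was extracted. The labels do not give the number of embryos or say whether they were pooled. With 1 array per genotype no difference below has a replicate check or a p-value.

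The 10 genes mark different compartments of the macrophage. Adgre1 encodes F4/80, an adhesion G protein-coupled receptor used as the standard surface marker of mouse tissue macrophages, and Sirpa encodes the receptor through which the "do not eat me" protein CD47 restrains phagocytosis. Ptprc encodes CD45, the tyrosine phosphatase found on nucleated blood cells in general, and Cd9 encodes a tetraspanin that organises membrane partners and is also abundant on platelets. Cd68 (macrosialin) is a heavily glycosylated protein of late endosomes and lysosomes, Mpeg1 encodes perforin-2, a pore-forming protein that attacks engulfed bacteria, and Lyz1 and Lyz2 encode lysozymes that cut bacterial cell walls. Lgals3 encodes galectin-3, first described as the macrophage antigen Mac-2, and Aif1 encodes IBA1, a calcium-binding protein that bundles actin in ruffles and phagocytic cups. c-Maf, the product of Maf, is a basic leucine zipper factor that binds Maf recognition elements, palindromes built around an AP-1-like core and flanked by TGC and GCA.

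RefSeq promoter sequence (build GRCm38.p6) was on hand for 8 of the 10 genes, and 3 of these are shown because the genes bear on the results below. Lyz1 and Lyz2 are neighbours on chromosome 10 whose ratios differed by a margin that these arrays do not settle. Cd68 had the highest ratio of the 10. Each sequence holds the 250 bases before the transcription start, 5′ to 3′. Capitals mark matches to TGCTGA (an arm of the Maf recognition element) or to TGC and GCA with 7 bases between them (its outer bases) in the lysozyme promoters, and matches to TGAGTCA (the AP-1 core) in that of Cd68.
Lyz1 promoter, chr10:117292869-117293118, minus strand: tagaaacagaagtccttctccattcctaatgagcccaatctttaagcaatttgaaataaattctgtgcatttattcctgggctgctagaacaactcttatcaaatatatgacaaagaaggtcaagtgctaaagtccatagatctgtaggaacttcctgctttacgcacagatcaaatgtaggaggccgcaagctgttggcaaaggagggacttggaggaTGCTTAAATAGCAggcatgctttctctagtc
Lyz2 promoter, chr10:117282273-117282522, minus strand: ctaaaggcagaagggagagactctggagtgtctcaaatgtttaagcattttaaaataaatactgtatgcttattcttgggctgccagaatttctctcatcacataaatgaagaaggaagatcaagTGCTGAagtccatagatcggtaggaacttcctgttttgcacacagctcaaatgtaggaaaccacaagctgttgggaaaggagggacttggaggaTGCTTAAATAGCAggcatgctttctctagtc
Cd68 promoter, chr11:69666171-69666420, minus strand: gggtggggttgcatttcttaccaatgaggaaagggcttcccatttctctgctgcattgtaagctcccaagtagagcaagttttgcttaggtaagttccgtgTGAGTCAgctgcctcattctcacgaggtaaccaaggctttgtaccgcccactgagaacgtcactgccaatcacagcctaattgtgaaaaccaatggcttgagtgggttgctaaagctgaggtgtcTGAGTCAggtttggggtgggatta

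The lysozyme promoters shared 200 of 248 aligned bases (80.6% identity). Both carried TGCTTAAATAGCA, a match to the outer-base pattern, 31 to 19 bases before the start. The Lyz2 promoter alone of the pair held TGCTGA, 125 to 120 bases before the start. TGCTGA or its other strand, TCAGCA, was found in 16.1% of all 32851 promoter windows of this length, and in 1 of the 8 member genes searched. The outer-base pattern was found in 6.17% of windows and in 2 of the 8 genes. Cd68 had TGAGTCA at 149 to 143 and again at 24 to 18 bases before the start, a motif (other strand TGACTCA) held by 4.46% of windows and by no other member promoter. GAGGAA or TTCCTC, a core bound by PU.1, the master regulator of myeloid genes, was in 23.3% of windows and in 3 of the 8 genes, Aif1, Cd68 and Ptprc. GGGCGG or CCGCCC, the GC box, was in 32.7% of windows and in Cd68, Cd9 and Lgals3. TATAAA or TTTATA, the letters of the TATA box, was in 12.4% of windows and, among the members, in Ptprc. That match lay 187 to 182 bases before the start, and whether it acts as a TATA box was not tested. The palindrome TTGCGCAA of C/EBP factors was in 0.164% of windows and in none of the 8. A match is a description of these letters and not a measured binding site, and c-Maf binding was not measured here.

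The arrays were not at a common level, so each value is given in 2 ways. The deposited intensity, in linear units, had a median of 4.73 over all probe sets in wild type and 2.98 in knockout. The level-adjusted ratio is the log2 ratio of knockout over wild type after quantile normalization, which gives both arrays the same distribution of signals. Genes above the floor on both arrays had a median log2 ratio of -0.93 as deposited and 0.00 after adjustment, so a gene that was lower in deposited units can be higher relative to the other genes on its array. The floor, the 50th percentile of all values, was 3.70 as deposited and 3.75 after adjustment; a probe set below it on 1 array gives only a bound. The spread between probe sets of the same gene, measured over 3423 bright probe sets of 1423 genes, was 0.65 log2 units (SD), and it serves as the only yardstick, although animals, sorts and hybridisations may vary by more. Signal along control transcripts also differed between the arrays, with a 3′ to 5′ ratio for Actb of 13.3 (wild type) against 6.05 (knockout) and for Gapdh of 1.83 against 0.90, and its part in the member ratios was not tested. In sorted cells read in bulk, fewer cells of a type and less RNA per cell cannot be told apart.

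Maf served as the check of the genotype. Its brightest probe set read 47.6 in wild type and 0.219 in knockout, at least 8.51-fold lower after adjustment. Another Maf probe set read 21.0 and 0.143, at least 3.9-fold lower. The remaining Maf probe sets were close to or below the floor in wild type, so they can show little of a loss. Among them, the probe set above the floor on both arrays after adjustment was at 0.07 (4.955 to 3.25). Those under the floor in knockout only gave bounds of -0.03 and -0.21, and another, under it on both arrays, gave no ratio. The labels do not say which exons were deleted, so the signal may check the genotype only in part.

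The macrophage identity genes did not shift together. Sirpa and Ptprc were at least 2-fold lower on the knockout array after level adjustment, Cd68 and Aif1 were at least 2-fold higher, and the other 6 genes lay within 2-fold. Among all 13290 genes measured, 9.05% were lower by that margin and 8.34% higher, against 2 of 10 members each way. With 10 genes each count is too small to set the members apart from that background. The member ratios ran from -1.88 to 1.43 with a median of 0.32 (SD 1.02 between genes), beside a median of 0.01 (SD 0.75) over all genes. In deposited units 4 of 10 members (Sirpa, Ptprc, Mpeg1 and Lyz1) were at least 2-fold lower and 0 higher, where 39.8% of genes were lower and 1.19% higher.

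**Figure D1:**
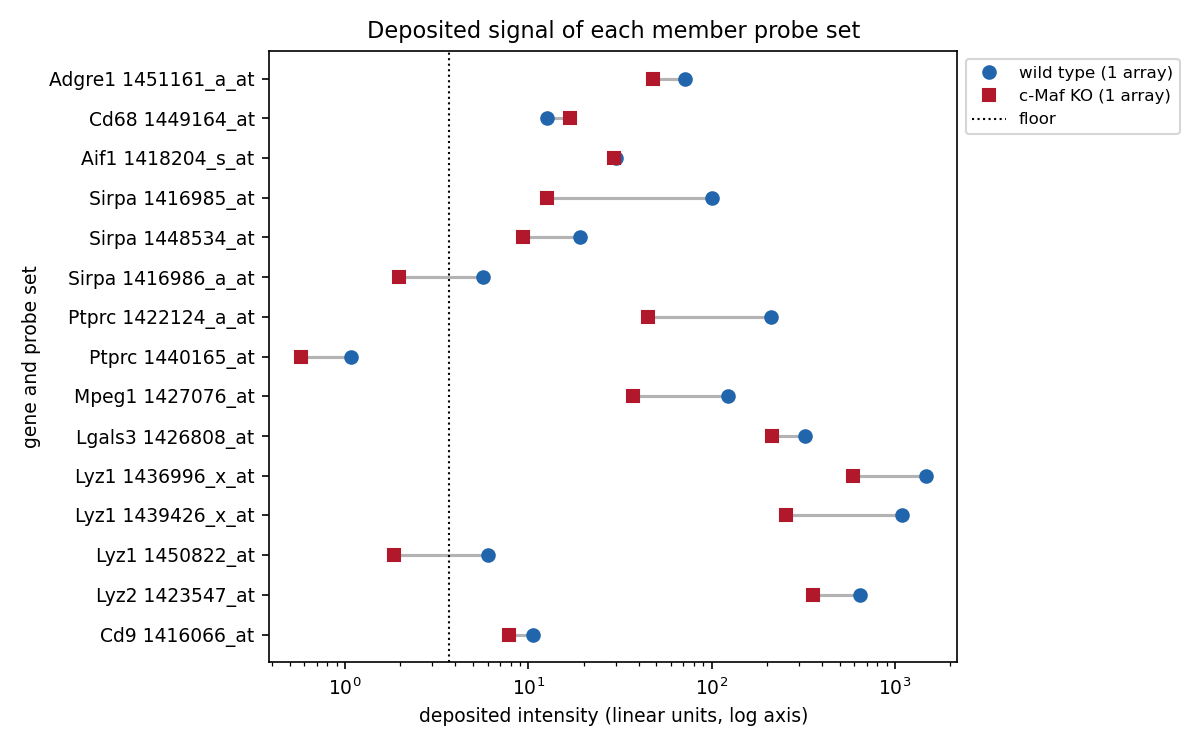
Deposited intensity (linear units, log axis) of the 15 member probe sets, with a blue circle for the wild-type array, a red square for the c-Maf KO array and a dotted line at the floor of 3.70. Cd68 is the only member whose knockout signal lies to the right of wild type, and the widest gap is that of Sirpa probe set 1416985_at (100.1 to 12.6).

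Among the surface receptors, Sirpa had the lowest ratio. Its brightest probe set, 1416985_at, read 100.1 in wild type and 12.6 in knockout (deposited signal), which is 3.67-fold lower after adjustment (log2 ratio -1.88). Only 1.06% of all measured probe sets had a lower ratio. Probe set 1448534_at did not show this: it went from 19.1 to 9.30, a level-adjusted ratio of -0.03. The third, 1416986_a_at, went from 5.63 to 1.97, which is under the floor. It is at least 1.18-fold lower, a limit that leaves its ratio unknown and moves to -0.82 with the floor at the 25th percentile. The platform annotation gives all 3 the same database sequence. The gap of 1.85 log2 units between 1416985_at and 1448534_at was wider than that of all but 4.02% of 2837 pairs of bright probe sets of one gene, although 1448534_at itself lay just under the brightness limit of that set. The mean over the 3 Sirpa probe sets, with the third at its limit, was -0.71, short of 2-fold.

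Ptprc, the pan-leukocyte gene, was the other lower member. Probe set 1422124_a_at read 209 in wild type and 45.2 in knockout, 2.07-fold lower after adjustment (-1.05). This lies barely past the 2-fold line, and 8.12% of measured probe sets were lower still. A further Ptprc probe set, 1440165_at, was below the floor on both arrays (1.08 and 0.573) and gives no ratio.

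Adgre1, the gene of the antigen used for the sort, had 1 probe set, 1451161_a_at, which read 71.4 in wild type and 48.1 in knockout. Its level-adjusted ratio was 0.60, or 1.51-fold higher, and 79.6% of measured probe sets had a lower one. That direction depends on the scaling, since Adgre1 was 1.49-fold lower in deposited units (-0.57) and near level with equal medians (0.10). Itgam, which encodes part of the other antigen of the sort, was close to the floor on both arrays (5.76 and 3.94, level-adjusted 0.16). Adgre1 lay 0.44 log2 units above Itgam after adjustment but level with it as deposited (-0.02). Relative to Csf1r, the receptor for the macrophage growth factor CSF1 (624.5 to 247.5, level-adjusted -0.24), Adgre1 was higher by 0.84 log2 units on the knockout array, and by 0.77 as deposited.

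Cd9, the tetraspanin, read 10.6 in wild type and 7.82 in knockout. Its level-adjusted ratio was 0.46, within the spread between probe sets of 1 gene, and it was 1.36-fold lower as deposited.

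Among the lysosomal and granule genes the ratios spread widely. Cd68 probe set 1449164_at read 12.6 in wild type and 17.0 in knockout, and it was the only member that was higher in deposited units (1.34-fold). After adjustment it was 2.70-fold higher (1.43), above 97.5% of all measured probe sets. Its sign stayed above 0 under all 5 other scalings, at 1.49 against probe sets of like signal and 0.19 with the hybridisation controls as reference. Mpeg1, the perforin-2 gene, went the other way: it read 122.5 in wild type and 37.3 in knockout (-0.55 level-adjusted, 1.46-fold lower), which is inside the spread of 0.65 between probe sets of a gene.

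Lyz1 and Lyz2, the neighbouring lysozyme genes with similar promoters, had ratios that differed by a margin not settled on these arrays. Lyz2 probe set 1423547_at went from 646 to 355, a level-adjusted ratio of 0.18 that turned to -0.20 with equal medians and -0.86 as deposited. Lyz1 probe set 1436996_x_at went from 1476 to 589 (-0.55), and 1439426_x_at from 1087 to 253, 2.23-fold lower after adjustment (-1.16). The third, 1450822_at, was near the floor in wild type (6.03) and below it in knockout (1.86), at least 1.26-fold lower.

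The suffix _x marks probe sets with probes that can bind other, similar transcripts, so the bright Lyz1 signals may hold Lyz2 RNA, and the lysozymes are uncertain as single genes. The Lyz2 ratio was above that of 1436996_x_at by 0.73 log2 units after adjustment and by 0.46 as deposited, to either side of the yardstick of 0.65. Against 1439426_x_at the gap was 1.33 after adjustment and 1.24 as deposited. The pair of bright Lyz1 probe sets differed by 0.61 between themselves, a gap met or passed by 49.1% of probe set pairs of one gene.

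Genes of a pair of cytoplasmic proteins complete the set. Lgals3, the galectin, read 324.5 in wild type and 214.6 in knockout. Its level-adjusted ratio was 0.60, and it was 1.51-fold lower as deposited. Aif1 probe set 1418204_s_at had nearly equal deposited signals, 30.0 and 29.2 (log2 ratio -0.04), while most genes on the knockout array were dimmer. It was therefore 2.14-fold higher after adjustment (1.10), above 93.6% of measured probe sets, but below 0 with the hybridisation controls as reference (-0.28).

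**Figure D2:**
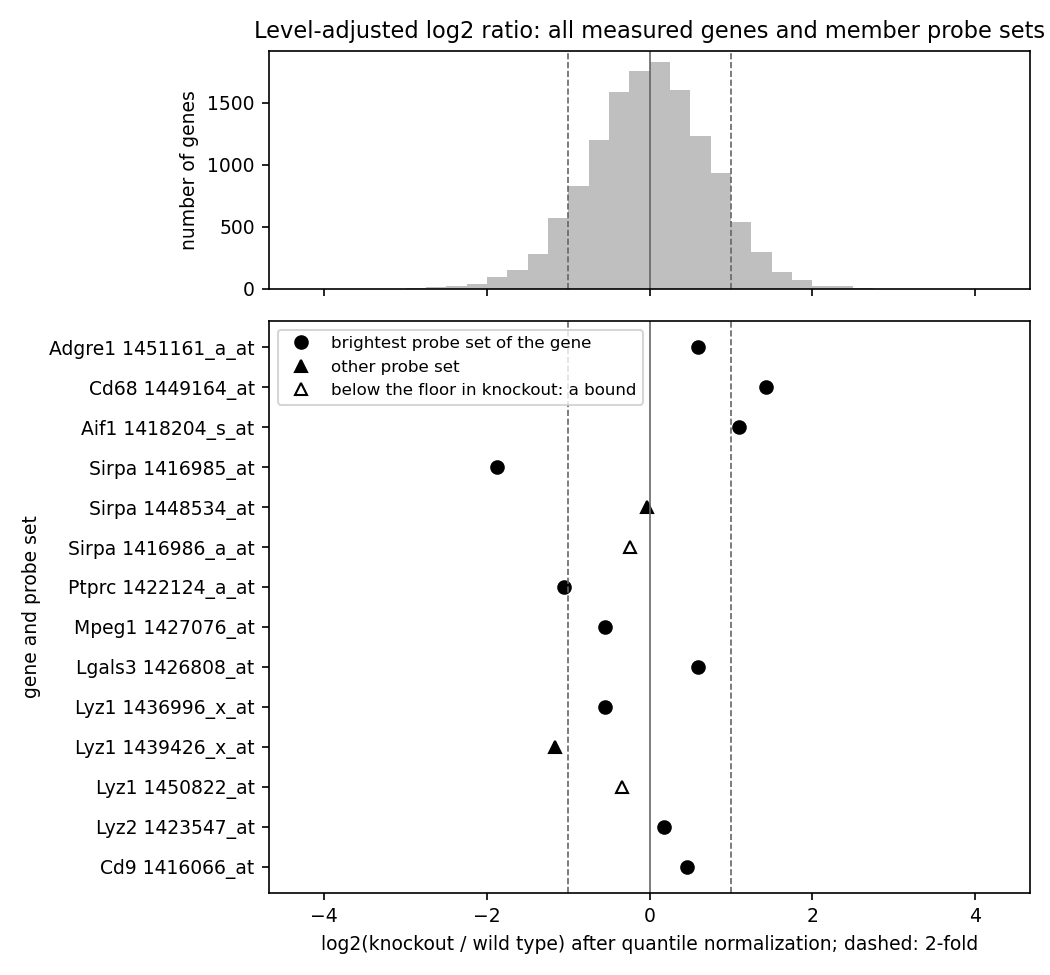
Upper panel, number of genes (vertical axis) by level-adjusted log2 ratio of knockout over wild type for all 13290 genes measured; lower panel, the same ratio for the 14 member probe sets above the floor on at least 1 array, with circles for the brightest probe set of a gene, triangles for other probe sets, open symbols for bounds and dashed lines at 2-fold. Sirpa 1416985_at (-1.88) and Cd68 (1.43) lie farthest apart, and Sirpa 1448534_at lies near 0 (-0.03).

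Of the 15 probe sets, 14 were above the floor on at least 1 array and 12 on both. Counted as probe sets, 3 of the 14 were past 2-fold in the lower and 2 in the higher direction, beside 9.01% and 8.41% of all 27755 probe sets measured. By brightest probe set the order from the lowest ratio was Sirpa, Ptprc, Lyz1, Mpeg1, Lyz2, Cd9, Lgals3, Adgre1, Aif1 and Cd68. The widest step between neighbours in that order, from Sirpa to Ptprc, was 0.83 log2 units, and the step from Mpeg1 to Lyz2 was 0.72. The other steps were at most 0.50, below the yardstick of 0.65, so those neighbours cannot be ordered on these arrays. That yardstick is the spread of single ratios, and a gap between ratios varies by more. The wider steps are therefore not settled either, and Sirpa 1448534_at (-0.03) lay above Ptprc (-1.05).

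The gaps between members are set out next. For probe sets above the floor on both arrays, 4 of the 6 scalings move all ratios by the same amount and so cannot change these gaps. Cd68 was 3.31 log2 units above Sirpa 1416985_at after adjustment and 3.42 as deposited. Against Sirpa 1448534_at the gap was 1.46 on both scales. Aif1 lay 2.15 log2 units above Ptprc after adjustment and 2.18 as deposited. In the middle of the order the scale did matter: Cd9 stood below Lgals3 and Adgre1 after adjustment and above both as deposited, and Lyz1 and Mpeg1 changed places. By their brightest probe sets, Sirpa and Ptprc were at least 2-fold lower under all 6 scalings. The 4 scalings that shift all ratios alike placed both genes lower than quantile normalization did, so they add no separate check. As deposited, 39.8% of all genes were lower by that margin. Against probe sets of like signal Sirpa was at -1.84 and Ptprc at -1.02, barely past the line. Sirpa 1448534_at was at -0.03 after adjustment. Cd68 was short of 2-fold higher as deposited (0.43) and with the hybridisation controls as reference (0.19). Aif1 passed 2-fold after quantile normalization and against probe sets of like signal (1.13), but was at 0.80 with ratios centred on the median probe set and 0.63 with equal medians. The scaling also set the sign: after adjustment 6 members were above 0 and 4 below, whereas as deposited 1 was above 0 and 9 below.

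**Figure D3:**
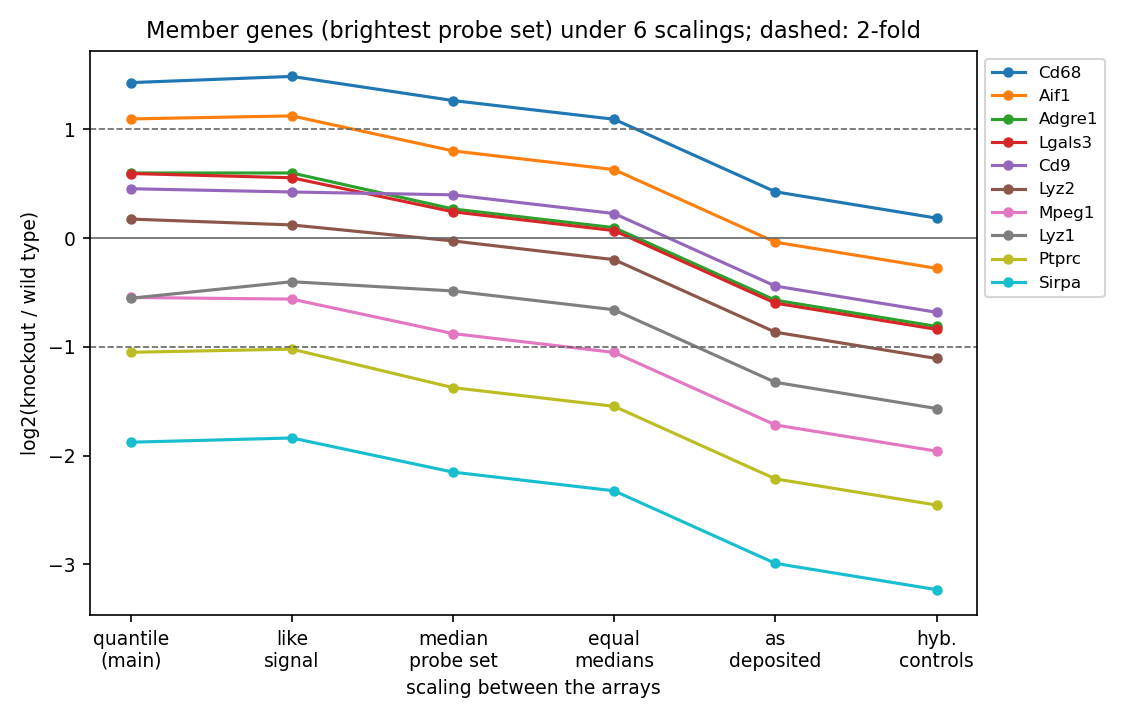
Log2 ratio of knockout over wild type (vertical axis) of the 10 member genes, each by its brightest probe set, under 6 scalings between the arrays (horizontal axis), with dashed lines at 2-fold. The last 4 scalings shift all genes above the floor on both arrays alike, so these lines are parallel by construction. Aif1 passes from 1.10 after quantile normalization to -0.28 with the hybridisation controls as reference.

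Partners of the members were read from 7 lists with 84 genes measured, each by its brightest probe set and on the level-adjusted scale. The lists were chosen with earlier results of these data known, and their background is the same 9.05% lower and 8.34% higher. Of 21 other macrophage genes measured, 0 were at least 2-fold lower and 3 higher, with ratios from -0.93 to 1.29 and a median of 0.01; 3 were lower with equal medians, and 3 with the floor at the 25th percentile. The 3 were Fcgr1, the high-affinity IgG receptor (15.8 to 17.6, level-adjusted 1.21), Fcer1g, the signalling chain of Fc receptors (90.3 to 87.7, 1.12), and the sialic acid receptor gene Siglec1 (5.91 to 8.10, 1.29), the last named after its value was seen. Another Siglec1 probe set was at 0.70, short of 2-fold, and another of Fcgr1 at 1.61. The adaptor gene Tyrobp (284.5 to 252.2) was at 0.94 and the fractalkine receptor gene Cx3cr1 (16.4 to 4.71) at -0.93. As deposited, 9 of these genes were at least 2-fold lower and 0 higher, beside 39.8% and 1.19% of all genes.

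Adhesion receptors related to Adgre1 had 0 of 7 members lower and 1 higher. The higher one was Adgre4, a macrophage receptor of the same EGF-TM7 family (7.47 to 10.3, level-adjusted 1.36), chosen after its value was seen; its other probe set was at 0.74. Adgre5, which encodes CD97, was at 0.37 (35.97 to 21.1) and Adgrg3 at -0.27 (52.2 to 19.6). The list median was 0.37 after adjustment and -0.77 as deposited.

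Signalling partners of CD45 and of the SIRP alpha receptor had 1 of 10 members lower and 1 higher. Pag1, a membrane adaptor that anchors the kinase Csk, read 24.5 in wild type and lay below the floor in knockout (2.83), at least 4.54-fold lower; its other probe set was at -0.15. Csk itself, which puts the inhibitory phosphate on Src-family kinases that CD45 removes, was 3.06-fold higher (9.75 to 15.4, 1.61). Cd47, the ligand of the Sirpa product, was at 0.82 (75.8 to 59.4), with its other 3 probe sets between -0.41 and 0.30. The phosphatases that act below Sirpa were within 2-fold, Ptpn6 (SHP-1) at -0.42 with another probe set at 0.98, and Ptpn11 (SHP-2) at 0.29 with others from -0.82 to 0.57. Both were named after their values were seen. Fyn, a Src-family kinase, was at 0.79, with another probe set at 0.25.

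Tetraspanins and partners of CD9 had 2 of 15 members lower and 0 higher, with a median of -0.01. Tspan14, a tetraspanin that escorts the protease ADAM10, was 2.98-fold lower (68.4 to 10.7, -1.58). Tspan4, named after its value was seen, read 12.6 in wild type and 1.41, under the floor, in knockout, at least 2.46-fold lower. Cd37 was at -0.69 (40.1 to 11.6), with its other probe set at 0.83, Tspan31 at -0.60 and Tspan33 at 0.50.

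Galectins and their ligands had 0 of 7 members lower and 1 higher. Lgals9, the gene of galectin-9, was 3.81-fold higher (26.8 to 47.2, level-adjusted 1.93) and also higher as deposited (0.82). Lgals1 was at 0.27 (671 to 403), with its other probe set at 1.23. Lgals8 was at 0.03, with another probe set at 1.35. Mgat5, the enzyme that builds the branched glycans galectins bind, was at -0.09, with its other 2 probe sets at 0.34 and 0.81.

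Actin regulators that work beside Aif1 had 1 of 11 members lower and 2 higher, with a median of -0.13. Coro1a, a leukocyte coronin, was 2.90-fold lower (1922 to 390, -1.54), although its other 2 probe sets ran from -1.14 to 0.30. Pfn1, the actin monomer binder profilin, was at 1.34 (53.3 to 60.2). Fscn1, an actin bundler, was at 0.83, with another probe set at 0.28.

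Lysosome membrane and antimicrobial genes, the company of Cd68, Mpeg1 and the lysozymes, had 2 of 13 members lower and 1 higher. Slc11a1, the phagosomal metal transporter, was 3.49-fold higher (11.5 to 19.9, 1.80). The lower genes were Slc11a2 (12.1, then 1.11 and so under the floor; at least 2.38-fold) and Chil3, a chitinase-like secreted protein (11.9 to 3.02, -1.20), both named after their values were seen. The other 2 Slc11a2 probe sets measured were at -0.70 and -0.07, short of 2-fold. Lamp2, a relative of Cd68 in the LAMP family, was at -0.91 (502 to 119), with its other 3 probe sets between -0.68 and -0.35. The cathepsin genes Ctss (0.93) and Ctsl (0.94) were within 2-fold by their brightest probe sets, with another Ctsl probe set at 1.17. The lower count of this list became 0 with the floor at the 65th percentile. The higher count became 2 with the mean over probe sets and with probe sets lacking a suffix. The median of this list was 0.73 after adjustment and -0.42 as deposited.

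**Figure D4:**
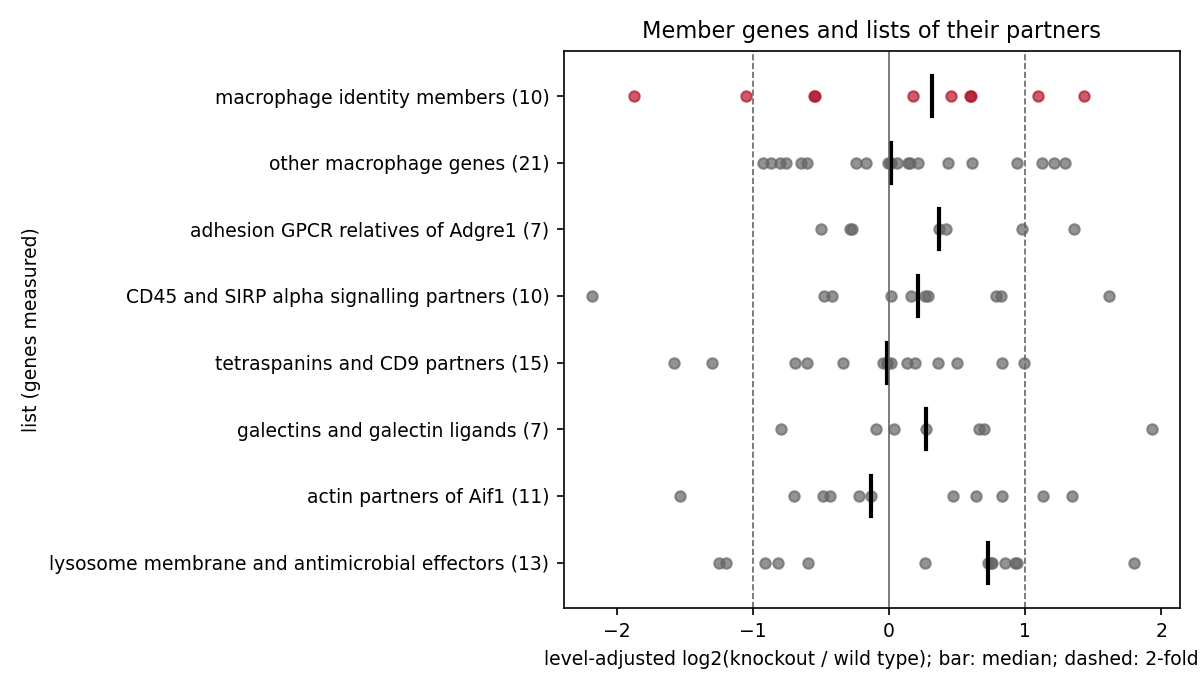
Level-adjusted log2 ratio (horizontal axis) of the 10 member genes (red) and of the genes measured in 7 partner lists (grey), each by its brightest probe set, with bars at the list medians and dashed lines at 2-fold. Every list holds ratios on both sides of 0, with medians from -0.13 for the actin partners to 0.73 for the lysosome and antimicrobial genes.

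Most of the 10 members are not exclusive to macrophages: Ptprc, Lyz2 and Lgals3 are also expressed by granulocytes and monocytes, and Cd9 by platelets. Markers of those and other cells were read on the same arrays, as the summed level-adjusted signal of each list. The background for the counts after adjustment is again 9.05% of all genes lower and 8.34% higher. Granulocyte markers summed to 12280 in wild type and 10590 in knockout, with 2 of 11 at least 2-fold lower and 0 higher. Monocyte markers summed to 2022 and 1482, with 3 of 6 lower and 2 higher and a median of -1.03. The chemokine receptor gene Ccr2 was 3.34-fold lower by its brightest probe set (1212 to 190), but its other 3 probe sets ran from -0.81 to 1.77. Klf4 was at -1.29, and the higher ones were Plac8 at 1.31 and Ms4a4c at 1.45. Megakaryocyte and platelet markers summed to 142 and 164, with 1 of 9 lower and 1 higher, and erythroid markers to 8858 and 6524, with 0 of 11 lower and 2 higher. The erythroid median was 0.25 after adjustment, although the sum was lower. In deposited units Hbb-y gave 7061 of the erythroid sum of 8784 in wild type and 4650 of 5609 in knockout. S100a8 (4717 to 3317) and S100a9 (4926 to 3812) likewise made up most of the deposited granulocyte sum (15030 to 8665). Their level-adjusted ratios were 0.0 and 0.07, with a list median of -0.09.

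Hepatoblast markers had the highest median of the 9 lists after adjustment, 1.74, with 0.68 as deposited; the monocyte median was -2.07 as deposited. All 9 measured were at least 2-fold higher after adjustment, beside 8.34% of all genes, with a sum of 256 in wild type and 888 in knockout. The count was 3 as deposited (beside 1.19% of all genes), 2 with the hybridisation controls as reference and 3 with probe sets lacking a suffix. The last setting leaves out genes whose measured probe sets all carry a suffix, such as Dlk1 and Apoa2. Its count is therefore not out of the same 9 genes. Alb, the albumin gene, went from 63.8 to 136.3 (level-adjusted 2.27). The remaining lists were dimmer. Lymphoid markers summed to 54.4 and 34.0 with 1 of 7 lower, dendritic cell markers to 65.3 and 44.7 with 2 of 6 lower, endothelial and stromal markers to 54.1 and 68.2 with 0 of 8 past 2-fold, and mast cell and basophil markers to 40.4 and 38.3 with 1 of 5 lower. None of the marker probe sets was listed at exactly 0. The part of these cells in the member ratios was not tested.

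**Figure D5:**
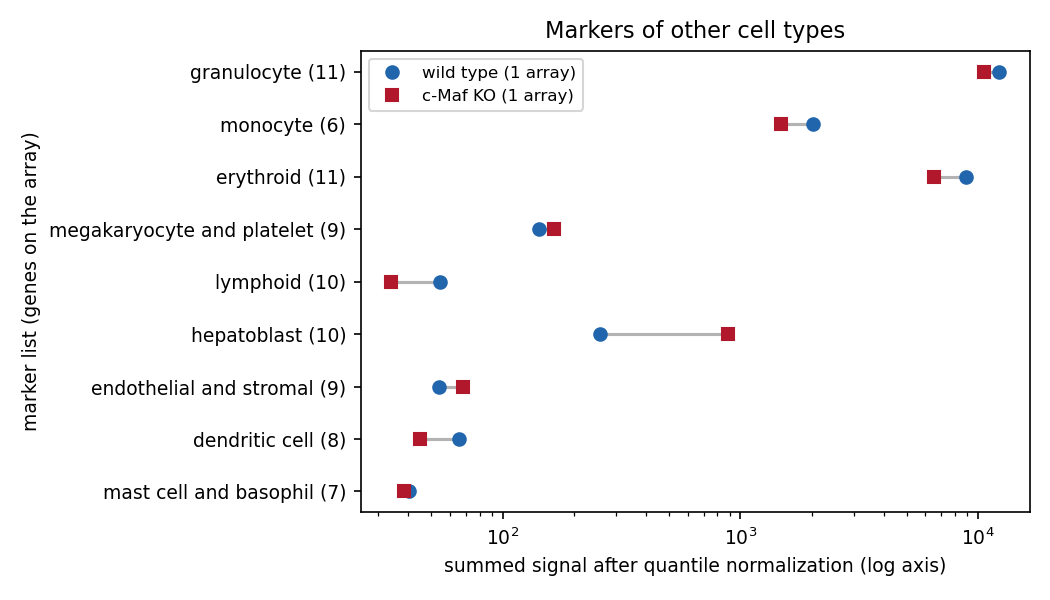
Summed signal after quantile normalization (log axis) of the markers of 9 other cell types, with a blue circle for the wild-type array, a red square for the c-Maf KO array and the number of genes on the array beside each list. Hepatoblast markers show the widest gap on this scale (256 to 888), while granulocyte and erythroid markers have much larger sums on both arrays.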

How the data were processed

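Biotin-labelled total RNA was hybridised to Affymetrix GeneChip arrays, per the labels' protocols, with 1 array per genotype. Each probe set has 1 deposited intensity per array on a linear scale, from 0.0203 to 10606; the authors' summary and scaling steps are not stated in the labels. Probe sets were named from the platform annotation only where it gave 1 symbol (34945, of which 34754 matched GRCm38.p6 genes by Entrez identifier). Intensities were quantile normalized on the log2 scale over all probe sets, floored at the 50th percentile, and expressed as log2 ratios (Python 3.11.15, pandas 2.3.3, numpy 2.4.6, checked on simulated data). The brightest probe set by mean deposited signal stood for a gene. No test was possible. The members and lists were chosen with earlier results of these data known. Named genes were all members, Maf, Itgam, Csf1r and, in each list, up to 4 genes with the largest absolute ratio among those reaching 4 times the floor in signal. For other cell types only genes that the comparisons turn on are named, and 1 actin list gene is not reported here. The alternatives were 5 scalings, 2 floors, a pseudocount, 2 probe set rules and thresholds of 1.5- and 3-fold. The number of arrays limits the precision.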

Additional observations from a re-analysis of the deposited data

How the results depend on the processing

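The counts of member genes depend on the scaling. Over all genes, 9.05% were at least 2-fold lower and 8.34% higher on the level-adjusted scale, and 39.8% and 1.19% as deposited. For the other scalings the share over all genes was not computed, so those counts have no background beside them. At least 2-fold lower and higher were 2 and 2 genes on the level-adjusted scale, 4 and 0 as deposited, 3 and 1 with equal medians, 2 and 1 with ratios centred on the median probe set, 2 and 2 against probe sets of like signal, and 5 and 0 with the hybridisation controls as reference. For probe sets the same settings gave 3 and 2, 6 and 0, 4 and 1, 3 and 1, 3 and 2, and 7 and 0. The floor as a pseudocount left 1 gene and 1 probe set higher. The mean over probe sets left 1 gene lower, and probe sets without a suffix left 1 lower and 1 higher, since Adgre1, Aif1 and Ptprc then had no measured probe set. Counting 1.5-fold gave 4 genes and 4 probe sets higher, and 3-fold gave 1 lower and 0 higher for both. The floors at the 25th and 65th percentile moved no member count. Aif1 turned to -0.036 as deposited and -0.28 with the hybridisation controls.

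Of the 84 partner genes, 6 were lower and 9 higher: the lower count became 38 as deposited, 15 with equal medians, 46 with the hybridisation controls, 11 and 3 with the lower and higher floor, 19 at 1.5-fold and 1 at 3-fold. The higher count became 0 as deposited, 5 with equal medians, 0 with the hybridisation controls, 26 at 1.5-fold and 3 at 3-fold. As deposited, 39.8% of all genes were lower and 1.19% higher, so the deposited counts carry the level difference between the arrays. Apart from changes that follow from fewer or more genes tested or another threshold, the cause was not tested. No paired analysis was possible because each genotype has 1 array. No gap between members below the spread of 0.65 log2 units can be read from 2 arrays. A gap somewhat above it is not settled either, since 0.65 is the spread of single ratios.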
